A study of Homo sapiens with 10 samples.

Results

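The genes described here encode 9 enzymes or enzyme subunits of the tricarboxylic acid cycle: CS, IDH2, IDH3A, IDH3B, IDH3G, OGDH, SUCLG1, FH and MDH2. They were picked by symbol from the 60554 genes listed in the tables, with earlier results of these data known. All 9 passed the filter on low values and are among the 11640 genes tested. The cells were Caco-2, a human colon carcinoma line. They were a puromycin-selected monoclonal line with dCas9-KRAB, a Cas9 that binds DNA without cutting it and carries a repressor domain, so every group comes from 1 clone. The control group, gCtl, received the lentiviral guide plasmid pKLV-hygro without a guide (n = 5). The other groups received a guide against the long noncoding RNA LHFPL3-AS2, which was LHFPL3-AS2_g1 in 3 libraries (g1 below) and LHFPL3-AS2_g2 in 2 libraries (g2 below). All were seeded as monolayers, and the labels give neither age of culture nor batch. The question is whether RNAs of cycle enzymes differed between cells with a guide and cells without one, and between the guides.

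The cycle runs in the mitochondrial matrix. Citrate synthase joins acetyl-CoA to oxaloacetate, isocitrate and alpha-ketoglutarate are oxidised with release of carbon dioxide, succinyl-CoA is cleaved with formation of GTP or ATP, and succinate is returned to oxaloacetate by way of fumarate and malate. The electrons taken up by NAD and FAD feed the respiratory chain, and citrate and malate that leave the matrix supply the cytosol with acetyl-CoA and reducing equivalents. Enterocytes draw much of the carbon of their cycle from glutamine, which enters as alpha-ketoglutarate.

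MDH2, the matrix malate dehydrogenase, was lower with both guides, at 0.572 of its gCtl level over the 5 guide libraries. IDH3B, a subunit of the NAD-dependent isocitrate dehydrogenase, was lower in g2 alone, at 0.386 of gCtl, and differed between the guides. IDH3G, another subunit of that enzyme, also fell in g2. SUCLG1, the alpha subunit of succinyl-CoA ligase, was the single member with a higher estimate in both guide groups, above every gCtl library in each of the 5 guide libraries but by less than 1.5-fold. CS, IDH2, IDH3A, OGDH and FH were not called in any comparison, though FH was under some alternative settings.

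The targeted RNA was not called lower in the guide libraries. LHFPL3-AS2 stood at 0.841 to 3.73 RPM in gCtl (estimated counts per 1000000 counts of the library), 2.03 to 3.95 in g1 and 2.16 and 6.01 in g2. Its estimated log2 difference, guide libraries against gCtl, was 0.61 ± 0.42 (SE; adjusted p = 0.381 over 23413 genes), on 4.39 to 44.0 counts per library. Directions below are therefore those of libraries labelled g1 and g2, whose knockdown these low counts do not show. The study checked it by qPCR, which is not analysed here. Library totals lay between 3838803 and 8730468 estimated counts. Counts from the mitochondrial genome made up 18.3 to 23.97% of a gCtl library and 19.0 to 20.6% of a g1 library, against 16.8% and 12.0% in g2, and the 10 most abundant genes took 26.4 to 32.1%, 26.8 to 36.9%, and 42.7% and 38.0%. The part of these shares in the results for g2 was not tested. The 7 epithelial markers were all tested and summed to 1602 to 2119 RPM across libraries. Of the leukocyte, fibroblast and endothelial markers LYZ, COL1A1 and PECAM1 alone passed the filter, and each list summed to at most 28.15 RPM in any library. PECAM1 was called higher in g1, at 5.645, 14.5 and 11.2 CPM (scaled as below) against 2.98 to 5 in gCtl (log2 fold change 1.27 ± 0.37 (SE), edgeR adjusted p = 0.0235). LYZ was above the highest gCtl library in 4 of the 5 guide libraries, at a log2 difference of 0.57 ± 0.24 (adjusted p = 0.103). The part of these markers in the results was not tested. Since RNA was taken from whole cultures, a lower level in every cell and a larger share of cells with little of the RNA cannot be told apart.

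Levels of the members in gCtl differed widely. On the scale of TPM, which divides by transcript length, SUCLG1 was highest at 299 ± 14.7 (SD, n = 5), followed by MDH2 at 178.5 ± 30.3 and IDH3B at 59.5 ± 5.48. FH stood at 41.65 ± 9.74, IDH3A at 39.6 ± 8.89, CS at 30.6 ± 1.36 and IDH3G at 20.1 ± 4.34. IDH2, the NADP-dependent mitochondrial isocitrate dehydrogenase, was at 7.665 ± 1.20 TPM, and OGDH, the first component of the alpha-ketoglutarate dehydrogenase complex, was lowest at 3.6 ± 1.152. The gCtl ranges in TPM of IDH3B and FH overlapped, as did those of FH and IDH3A and those of IDH3A and CS. Neighbours outside these pairs did not overlap. Within each gCtl library IDH3A was above CS, and their ranges in RPM were apart, at 52.4 to 72.2 and 29.5 to 39.4. For IDH3B and FH, and for FH and IDH3A, the order in TPM changed between libraries. Reads of this library type start near the polyA tail and do not grow in number with length. By RPM, without division by length, IDH3A ranked above FH and IDH2 above IDH3G, and the other ranks were as in TPM. By count, SUCLG1 was above 97.1% of the tested genes and OGDH above 34.9%.

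The values below are CPM, counts per 1000000 counts of the tested genes after TMM scaling (a correction of library size by trimmed means). Calls rest on edgeR's quasi-likelihood test, with p adjusted by the method of Benjamini and Hochberg over all 11640 genes, and needed an adjusted p of 0.05 or less together with a change of 1.5-fold or more. With the 5 guide libraries as one group, 1 of the 9 members was called lower and 0 higher, beside 11.1% of all tested genes called lower and 8.1% called higher. Without the minimum on fold change 1 was lower and 1 higher, beside 12.8% and 10.9%. In g1 1 member was called lower and 0 higher (10.5% and 6.33% of all genes), and without the fold minimum 1 lower and 1 higher (11.5% and 8.44%). In g2 3 members were called lower and 0 higher, beside 12.2% and 11.5%. Between the guides 1 member was called lower in g2 than in g1 and 0 higher, beside 2.74% and 1.81%. For single guides the shares of members called lower were thus near the background in g1 and above it in g2, on 9 genes. The median log2 fold change of the members was -0.27 in the guide libraries together, -0.35 in g1 and -0.23 in g2, where the medians of all tested genes were 0.02, -0.01 and 0.02. A test against a change of 1.5-fold itself left 0 members in the guide libraries together and in g1, and 1, IDH3B, in g2. The counts also moved with single libraries: without gCtl replicate 5, FH was called lower as well, for 2 in the guide libraries together and 2 in g1, and without g2 replicate 2 only IDH3B was called in g2, for 1 in place of 3. Without g2 replicate 1 (FH) or g1 replicate 1 (IDH3G) there were 2 in the guide libraries together, and without g1 replicate 3 (SUCLG1, higher) 2 in g1. The guide comparisons share the gCtl libraries, so g1 and g2 are not independent of one another.

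**Figure D1:**
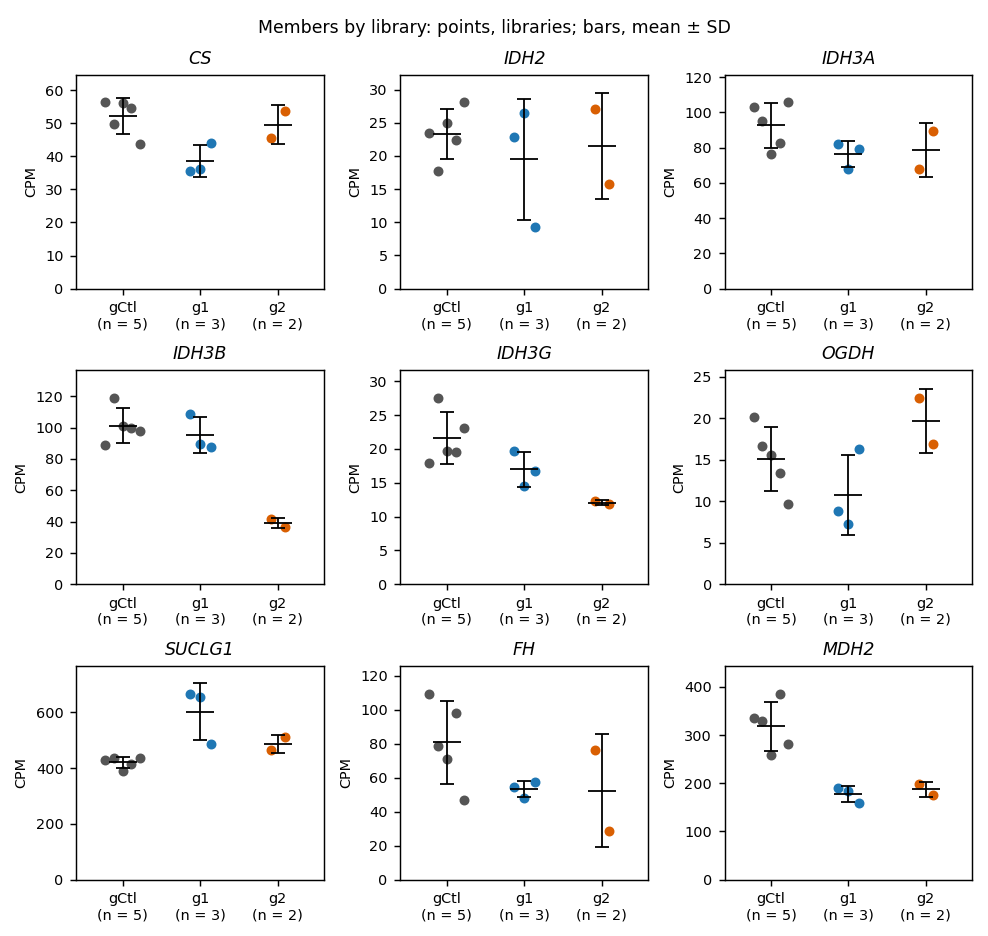
CPM of each member (vertical axes, starting at 0) in every library of gCtl, g1 and g2. Points are libraries, and the horizontal and vertical bars give the mean ± SD. All 5 guide libraries of MDH2 lie below gCtl, the 2 g2 libraries of IDH3B lie apart near 40 CPM, and all 5 guide libraries of SUCLG1 lie above gCtl.

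MDH2 (ENSG00000146701.11, plus strand of chr7:76048051-76067508, GRCh38) oxidises malate to oxaloacetate in the last step of the cycle and is the matrix arm of the malate-aspartate shuttle. It measured 336, 328, 258, 386 and 281 CPM in gCtl, 191, 184 and 159 in g1, and 199 and 176 in g2. No guide library reached the lowest gCtl library, and the guides lay over each other. The log2 fold change was -0.81 ± 0.13 (SE; adjusted p = 0.000958) for the guide libraries together, -0.84 ± 0.15 (adjusted p = 0.00166) in g1 and -0.76 ± 0.18 (adjusted p = 0.00593) in g2. Between the guides it was 0.08 ± 0.19 (adjusted p = 0.856). Of its counts 93.3% fell on transcript MDH2-002 in gCtl, 97.9% in g1 and 98.4% in g2 (means over libraries). Its call in g2 was lost without replicate 2 of that group, at a log2 fold change of -0.68 (adjusted p = 0.0558).

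The NAD-dependent isocitrate dehydrogenase of the matrix is built of a catalytic alpha subunit (IDH3A) with beta (IDH3B) and gamma (IDH3G) subunits, and is the regulated isocitrate-oxidising step of the cycle. IDH3B (ENSG00000101365.20, minus strand of chr20:2658395-2664219) measured 89.0, 119, 101, 99.6 and 98.0 CPM in gCtl and 109, 89.3 and 87.8 in g1. In g2 it measured 41.6 and 36.8. The gCtl and g1 libraries overlapped, and both g2 libraries were far below all of them. The log2 fold change was -1.37 ± 0.17 (SE; adjusted p = 9e-05) in g2 and -0.09 ± 0.14 (adjusted p = 0.694) in g1. The difference between the guides itself was -1.28 ± 0.18 (adjusted p = 0.00145). With both guides in one group the change was -0.48 ± 0.25 (adjusted p = 0.17), which describes neither of them. A single transcript, IDH3B-011, carried 91.5% of the counts in gCtl, 90.7% in g1 and 93.2% in g2. IDH3B was called in g2 under each of the 18 alternatives that gave it a value, between -1.57 and -1.23.

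IDH3G (ENSG00000067829.18, minus strand of chrX:153785766-153794523) measured 17.9, 27.5, 19.7, 19.6 and 23.1 CPM in gCtl, 19.6, 14.5 and 16.8 in g1, and 12.3 and 11.8 in g2. Both g2 libraries were below every other library, while g1 overlapped gCtl. The log2 fold change was -0.84 ± 0.25 (SE; adjusted p = 0.023) in g2, -0.35 ± 0.21 (adjusted p = 0.267) in g1 and -0.50 ± 0.27 (adjusted p = 0.308) between the guides, so that a difference between g2 and g1 was not shown for this subunit. The gene rests on 45 to 99 counts per library, and the call in g2 was lost without replicate 2 of g2 (-0.81, adjusted p = 0.118) or without replicate 2 of gCtl (-0.74, adjusted p = 0.0522). Its annotated interval shares 1008 bases with SSR4 on the opposite strand, and the sources used here do not state whether strand was used in counting. IDH3A shares 47 bases with CIB2 and 4482 with ACSBG1 on the opposite strand, and 1931 with AC090260.1 on its own strand. CS shares 14477 with AC073896.1 on its own strand and 251 with AC073896.2 on the opposite one. The part of these overlaps in the counts was not tested.

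IDH3A (ENSG00000166411.13, plus strand of chr15:78131498-78171949) measured 103, 95.4, 76.6, 82.5 and 106 CPM in gCtl, 82.2, 67.9 and 79.3 in g1, and 67.9 and 89.6 in g2. The groups overlapped, and the log2 fold change of the guide libraries was -0.26 ± 0.14 (SE; adjusted p = 0.175). Its counts were divided differently in g2. The long transcript IDH3A-001 (4128 bases) took 77.4 to 87.7% of them in gCtl and 73.9 to 86.1% in g1, against 54.8% and 63.4% in g2, and the rest lay on short annotated transcripts of at most 744 bases. TPM, which divides by these lengths, gave IDH3A the opposite sign, 52.1 ± 16.8 (SD, n = 2) in g2 against 39.6 ± 8.89 in gCtl. The division is Kallisto's estimate, and it was looked at after the values were seen and not tested.

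The RNAs of IDH3A and IDH3B did not keep their proportion in g2, and this was less clear for IDH3A and IDH3G. The ratio of IDH3A to IDH3B (of RPM) was 1.16, 0.802, 0.755, 0.831 and 1.08 in gCtl and 0.755, 0.761 and 0.904 in g1, but 1.63 and 2.43 in g2. Both g2 values lay above all others. The ratio of IDH3A to IDH3G was 3.47 to 5.78 in gCtl and 4.18 to 4.72 in g1, and 5.50 and 7.58 in g2, where the lower g2 value fell within gCtl. These ratios were chosen after the values were seen and are given without a test.

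Sequence around the start of the genes called lower in g2 is shown because these 3 members moved in the same direction there. RefSeq (GRCh38.p14) gives 300-base windows, from 250 bases before to 50 after the start, for 8 members, and OGDH is named only. The letters CCGGAAG, on either strand, are the core bound by ETS family factors, which many genes of mitochondrial proteins carry near their start. They occur in the windows of IDH3B (1 match), IDH3G (1) and MDH2 (2), and not in those of CS, IDH2, IDH3A, SUCLG1 or FH. Below, capitals mark the match, and each line reads 5′ to 3′ on the strand of the gene. The IDH3B line is the 132 bases before its annotated first exon (chr20:2664220-2664351), and the MDH2 and IDH3G lines are 27 bases around a match (chr7:76047983-76048009 and chrX:153794451-153794477). The IDH3G match lies inside the gene's annotated interval given above, which begins upstream of the RefSeq start.
IDH3B: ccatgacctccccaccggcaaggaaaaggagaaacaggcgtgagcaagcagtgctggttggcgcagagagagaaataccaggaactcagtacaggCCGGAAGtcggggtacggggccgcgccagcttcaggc
MDH2: tttccgactcCCGGAAGtggccgtgat
IDH3G: gctctaggcgCCGGAAGggggcgtgaa

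The match begins 40 bases before the RefSeq start in IDH3B, 92 in IDH3G, and 113 and 69 in MDH2. Of all 35116 windows 10.3% hold these letters, and of 8997 tested genes with a window 22.8% do. Among the 2047 tested genes with the letters 11.3% were called lower in g2, against 12.0% of the 8997, so the letters did not go with lower calls in general. Other motifs searched on both strands were GCGCATGC (NRF1), AAGGTCA (bound by ERR factors) and CACGTG (E-box), each with 0 matches in the 8 windows. They occur in 3.05%, 3.92% and 7.26% of all windows, and in 6.57%, 3.92% and 12.8% of tested genes with a window. CCAAT was in 4 of the 8 windows (34.6% of all, 43.3% of tested genes). GGGCGG, the SP factor box, was in 3 (45.0% of all, 76.1% of tested genes). The motifs were chosen with the results known, a match is a description of letters, and the windows without one say nothing about a factor.

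SUCLG1 (ENSG00000163541.11, minus strand of chr2:84423523-84460045) encodes the subunit that succinyl-CoA ligase has in both its GTP-forming and its ATP-forming version. It measured 428, 437, 389, 415 and 435.5 CPM in gCtl, 667, 653.5 and 486 in g1, and 464 and 511 in g2. Every guide library was above every gCtl library, and 2 of the 3 g1 libraries stood well above the rest. The log2 fold change was 0.40 ± 0.13 (SE; adjusted p = 0.0405) for the guide libraries together and 0.52 ± 0.13 (adjusted p = 0.014) in g1. Both pass the test but not the fold minimum, and g2 did not pass the test at 0.21 ± 0.15 (adjusted p = 0.326). Counts were divided between the coding transcript SUCLG1-001 and the processed transcript SUCLG1-008, the former taking 39.2 to 60.3% in gCtl, 59.7 to 68.4% in g1, and 73.0% and 32.7% in the g2 libraries. Which transcript rose can therefore not be read from g2, whose libraries differ in opposite directions.

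FH (ENSG00000091483.6, minus strand of chr1:241497603-241519761), the fumarate hydratase, measured 109.5, 78.4, 70.8, 98.1 and 46.9 CPM in gCtl, 54.2, 48.1 and 57.4 in g1, and 76.1 and 28.7 in g2. The 3 g1 libraries lay close together within the lower part of a wide gCtl range, and the g2 libraries were far apart. Its log2 fold change over the guide libraries was -0.61 ± 0.24 (SE; adjusted p = 0.081). The size is past 1.5-fold, but the spread left it uncalled.

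**Figure D2:**
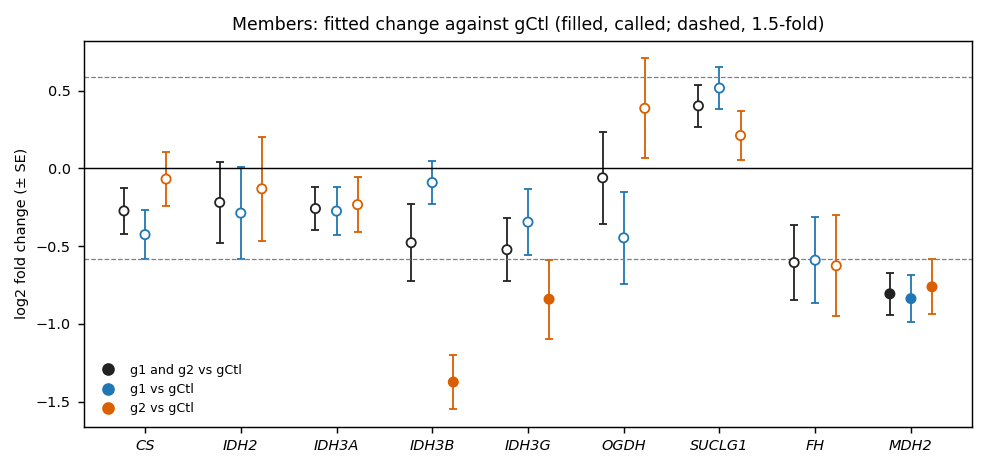
Fitted log2 fold change (vertical axis, ± SE) of each member against gCtl, for the guide libraries together (black), g1 (blue) and g2 (orange). Filled points were called, and dashed lines mark 1.5-fold. MDH2 is filled in all 3, IDH3B and IDH3G in g2 only, and SUCLG1 lies above 0 without reaching the dashed line.

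CS (ENSG00000062485.18, minus strand of chr12:56271699-56300392), which starts the cycle, measured 56.2, 49.8, 56.0, 54.7 and 43.8 CPM in gCtl, 35.6, 36.2 and 44.1 in g1, and 45.4 and 53.7 in g2. Of the g1 libraries 2 were below gCtl and the third at its lower edge, and both g2 libraries were inside it. The log2 fold change in g1 was -0.43 ± 0.16 (SE; adjusted p = 0.0645), short of both thresholds. Few of these counts were assigned to a coding transcript. The retained-intron transcript CS-006 and CS-008, a nonsense-mediated decay transcript, took 40.8% and 42.2% in gCtl, 63.8% and 24.2% in g1, and 58.9% and 33.2% in g2 (means).

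The 2 remaining members were low and varied between libraries of one group. IDH2 (ENSG00000182054.9, minus strand of chr15:90083045-90102504) makes NADPH in the matrix. It measured 23.5, 17.8, 25, 22.4 and 28.05 CPM in gCtl, 22.8, 26.4 and 9.2 in g1, and 27.1 and 15.8 in g2, on 51 to 107 counts. Its log2 fold change over the guide libraries was -0.22 ± 0.26 (SE; adjusted p = 0.571). OGDH (ENSG00000105953.14, plus strand of chr7:44606572-44709066) measured 20.1, 16.7, 15.5, 13.4 and 9.7 CPM in gCtl, 8.8, 7.2 and 16.2 in g1, and 22.4 and 16.9 in g2, on 23 to 90 counts. Both g2 libraries of OGDH were above the 3 g1 libraries, but the difference between the guides, 0.83 ± 0.35 (SE) on the log2 scale, did not pass the test (adjusted p = 0.19). A change of 1.5-fold can be missed. Of 100 genes changed 1.5-fold in simulated data 21% were recovered in the comparison of 5 with 5 libraries. Recovery was 12% in g1 and 9% in g2. Only 100 genes were changed 1.5-fold and 100 changed 3-fold among 11640 there, a smaller share than was called in these data. Fewer changed genes make the adjusted threshold stricter, so recovery in these data may be higher than these shares.

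Summed over the 9 members, the level was 1184, 1170, 1012, 1191 and 1072 CPM in gCtl, 1190, 1127 and 955 in g1, and 956 and 939.9 in g2. The g1 sums overlapped gCtl although MDH2 was lower, since SUCLG1, the most abundant member, was higher. Both g2 sums were below gCtl.

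Malate dehydrogenases and isocitrate dehydrogenases of different compartment or cofactor were compared as ratios of (RPM + 1) within each library, by an exact two-sided permutation test of the mean log2 ratio over 5 guide libraries and 5 gCtl libraries, with p adjusted over 4 ratios. MDH2 to MDH1, the cytosolic malate dehydrogenase, was 8.75, 9.95, 9.61, 11.4 and 9.35 in gCtl, 6.20, 5.75 and 4.33 in g1, and 5.185 and 7.69 in g2. The groups did not overlap, with a log2 difference of -0.77 (exact permutation p = 0.00794, the smallest this design allows, adjusted p = 0.0317). With TPM in place of RPM it was -0.69 and did not pass (exact permutation test, adjusted p = 0.0635). MDH1 itself had a log2 fold change of -0.01 ± 0.18 (SE; adjusted p = 0.963). IDH2 to the sum of the IDH3 genes differed by 0.14 (exact permutation p = 0.762, adjusted p = 0.857) and IDH2 to IDH1, the cytosolic NADP-dependent enzyme, by 0.07 (exact permutation p = 0.857, adjusted p = 0.857). For both ratios the g1 and g2 means lay on opposite sides of gCtl, with overlap. The mean log2 ratios in gCtl, g1 and g2 were -3.13, -3.29 and -2.55 to IDH3, and -1.275, -0.96 and -1.57 to IDH1. Ratios were not tested by guide. IDH1 was called lower in g1, at -0.68 ± 0.20 (SE; edgeR adjusted p = 0.0254), and not called in g2, at 0.17 ± 0.22 (adjusted p = 0.604). Its difference between the guides was 0.85 ± 0.24 (adjusted p = 0.0548) and did not pass.

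Of all 11640 tested genes 11.1% were called lower in the guide libraries together and 8.1% higher. Of the 10 other enzyme genes of the cycle, all tested, 2 were called lower there and 0 higher, and 8 did not pass. Their median log2 fold change was -0.17. The called genes are subunits of succinate dehydrogenase, which is also complex II of the respiratory chain. SDHA, its flavoprotein, had a log2 fold change of -0.65 ± 0.15 (SE; adjusted p = 0.00729), from 87.0 ± 15.9 CPM (SD, n = 5) in gCtl to 57.5 ± 1.72 in g1 (n = 3) and 51.9 ± 13.3 in g2 (n = 2), without overlap. SDHA has near-identical pseudogene copies, between which reads may be divided. SDHB, its iron-sulfur subunit, fell by 1.47 ± 0.41 (adjusted p = 0.0181), and replicate 5 of gCtl, at 4.98 CPM, lay among the guide libraries while the other gCtl libraries were at 15.0 to 27.9. Its call was lost without replicate 1 (-1.26) or replicate 4 (-1.28) of gCtl, and that of SDHA without replicate 2 of gCtl or replicate 2 of g2 (both -0.56), where it no longer reached 1.5-fold. By guide, SDHB was called in g1, at -1.825 ± 0.47 (adjusted p = 0.0136), and not in g2, at -1.06 ± 0.52 (adjusted p = 0.14). Between the guides it had 0.77 ± 0.58 (adjusted p = 0.477). Of the 10 genes 3 were called lower and 0 higher in g1 (10.5% and 6.33% of all tested genes). In g2 1 was lower and 0 higher (12.2% and 11.5%). The membrane anchors SDHC and SDHD had log2 fold changes of -0.28 ± 0.18 (adjusted p = 0.284) and -0.00 ± 0.23 (adjusted p = 0.994). On log2 (TPM + 1), however, SDHC was called lower, at -1.33 (limma, adjusted p = 0.0406), with 33.8 ± 19.8 TPM (SD, n = 5) in gCtl and 11.5 ± 6.30 in the guide libraries (n = 5).

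None of the genes named next passed in the guide libraries together. DLD, the dehydrogenase shared by the pyruvate and alpha-ketoglutarate complexes, had a log2 fold change of -0.42 ± 0.15 (SE; adjusted p = 0.05001). It was just over the threshold on p and also short of 1.5-fold. OGDHL, an OGDH-like enzyme at 4.34 CPM in gCtl, had -1.41 ± 0.52 (adjusted p = 0.0608), and it passed under 7 of 20 alternatives. In g1 it was called lower, at -1.95 ± 0.62 (adjusted p = 0.0358), without overlap with gCtl. In g2 it had -0.85 ± 0.63 (adjusted p = 0.336), and between the guides 1.10 ± 0.76 (adjusted p = 0.43). DLST, the second component of the alpha-ketoglutarate complex, had 0.66 ± 0.39 (adjusted p = 0.233). SUCLG2 and SUCLA2, the GTP- and ATP-specific partners of SUCLG1, had 0.15 ± 0.13 (adjusted p = 0.463) and -0.06 ± 0.18 (adjusted p = 0.843), so the higher SUCLG1 was not accompanied by a called change of either partner.

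**Figure D3:**
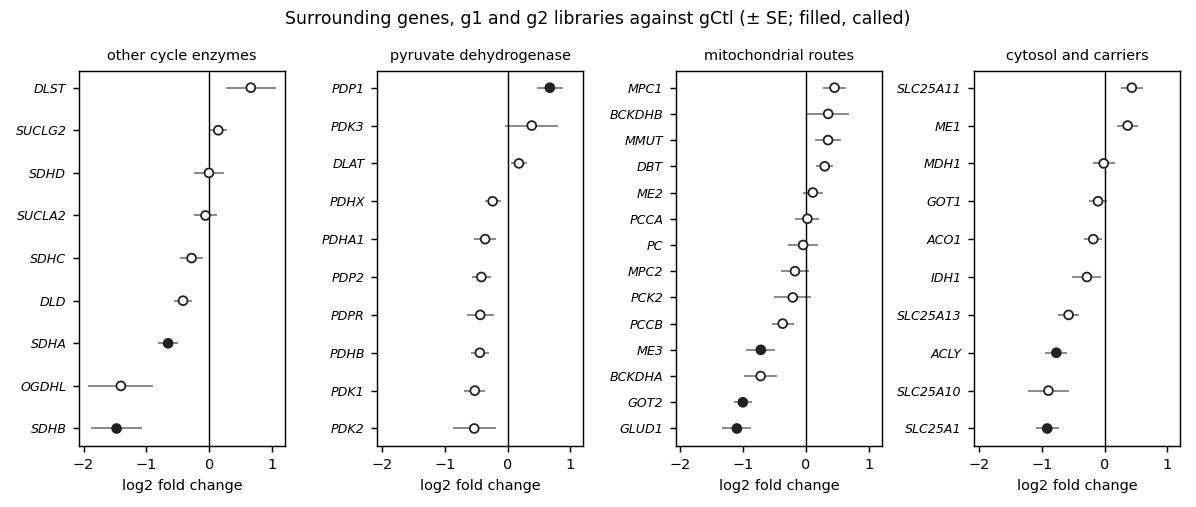
Fitted log2 fold change (horizontal axes, ± SE) of the guide libraries against gCtl for reported genes around the 9 members, in 4 groups. Filled points were called. SDHA, SDHB, ME3, GOT2, GLUD1, ACLY and SLC25A1 are filled to the left of 0, and PDP1 to the right.

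In pyruvate dehydrogenase and its regulators, which supply acetyl-CoA, 10 of 11 genes were tested. In the guide libraries together 1 was called higher and 0 lower, beside 8.1% and 11.1% of all tested genes. In g2 alone 2 were called lower and 1 higher (12.2% and 11.5% of all), and in g1 1 lower and 0 higher (10.5% and 6.33%). Lower in g2 were PDHA1, at -0.68 ± 0.20 (SE; edgeR adjusted p = 0.02), and PDHB, at -0.59 ± 0.18 (adjusted p = 0.0263). Lower in g1 was PDK1, at -0.63 ± 0.19 (adjusted p = 0.028). In the other guide PDHA1 had -0.18 ± 0.17 (adjusted p = 0.498), PDHB -0.35 ± 0.16 (adjusted p = 0.124) and PDK1 -0.37 ± 0.21 (adjusted p = 0.209). A difference between the guides was not shown (g2 against g1, adjusted p = 0.183, 0.517 and 0.562, in the same order). Both g2 libraries of PDK1, at 18.6 and 18.9 CPM, were also below the lowest gCtl library, at 23.3. The gene called higher in the guide libraries together was PDP1, a phosphatase that activates the complex, at 0.67 ± 0.21 (SE; adjusted p = 0.0304). Its call was lost in 13 of 20 alternatives. Of 15 genes of other mitochondrial routes into and out of the cycle, 3 were called lower in the guide libraries together and 1 higher (11.1% and 8.1% of all tested genes). In g1 2 were called lower and 1 higher (10.5% and 6.33% of all), and in g2 3 lower and 2 higher (12.2% and 11.5%). GLUD1, glutamate dehydrogenase, fell by 1.10 ± 0.23 (adjusted p = 0.00374) and GOT2, the mitochondrial aspartate aminotransferase, by 1.01 ± 0.14 (adjusted p = 0.000242). Neither overlapped between the groups, but GLUD1 has near-identical copies. GOT1, the cytosolic counterpart of GOT2, had -0.10 ± 0.15 (adjusted p = 0.65). ME3, a mitochondrial malic enzyme at 12.5 CPM in gCtl, had -0.72 ± 0.23 (adjusted p = 0.0332), and its call was lost in 7 of 20 alternatives. MPC1 was called higher in g2 only, at 0.64 ± 0.21 (adjusted p = 0.0355), with 0.31 ± 0.19 in g1 (adjusted p = 0.263). Between the guides it had 0.33 ± 0.23 (adjusted p = 0.45).

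Of 11 cytosolic counterparts and carriers 10 were tested. In the guide libraries together 2 were called lower and 0 higher, beside 11.1% and 8.1% of all tested genes. In g1 4 were called lower and 1 higher (10.5% and 6.33% of all), and in g2 3 lower and 0 higher (12.2% and 11.5%). SLC25A1, which carries citrate out of the matrix, fell by 0.91 ± 0.18 (SE; adjusted p = 0.00285). ACLY, which cleaves that citrate in the cytosol to acetyl-CoA and oxaloacetate, fell by 0.77 ± 0.17 (adjusted p = 0.00609). Neither overlapped between the guide libraries and gCtl. The share of all tested genes without overlap was not counted, for these genes or those of the lists above. Beside IDH1, 3 genes were called in 1 guide only. SLC25A10 was lower in g1, at -1.36 ± 0.34 (SE; edgeR adjusted p = 0.0112), against -0.40 in g2 (adjusted p = 0.438). SLC25A11 was higher in g1, at 0.61 ± 0.17 (adjusted p = 0.0197), against 0.13 in g2 (adjusted p = 0.668). SLC25A13 was lower in g2, at -0.75 ± 0.21 (adjusted p = 0.0164), against -0.47 in g1 (adjusted p = 0.0754). Of the 10 tested genes 0 were called between the guides. SLC25A12 and PDK4 did not pass the filter on low values.

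The 5 genes whose profile over the 10 libraries was most like the mean of the members' centred log2 (CPM + 1) were TGFBI (Pearson r = 0.978), FUCA1 (0.974), NDUFA1 (0.974), ACOT7 (0.973) and FAM213B (0.972). The libraries form groups in that mean, so the r values mostly restate a difference between gCtl and the guide libraries. NDUFA1, a subunit of respiratory complex I, went from 140.1 ± 42.1 CPM (SD, n = 5) in gCtl to 41.8 ± 5.63 in g1 (n = 3) and 30.3 ± 11.7 in g2 (n = 2).

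**Figure D4:**
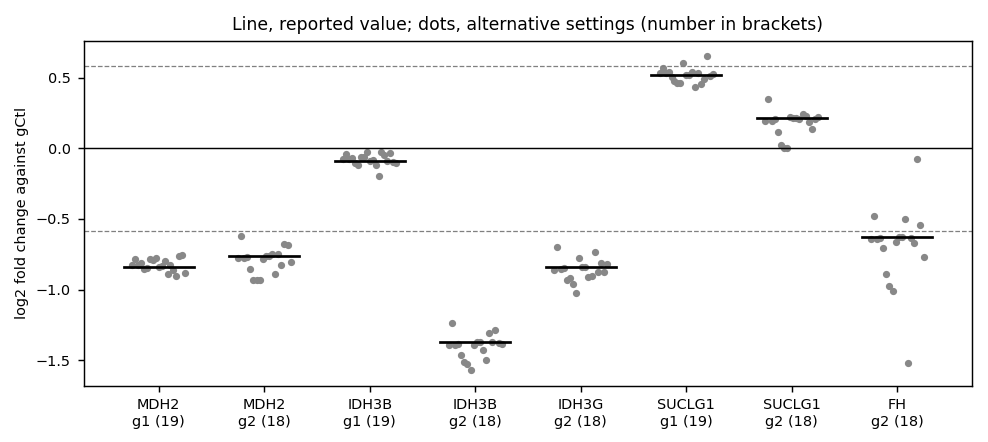
Log2 fold change against gCtl (vertical axis) of 5 members in g1 or g2. Lines give the reported value, dots the values under other settings (18 or 19, in brackets), and dashed lines 1.5-fold. IDH3B in g2 stays between -1.57 and -1.23, whereas FH in g2 ranges from -1.52 to -0.08.

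Across the alternative settings the MDH2 values in g1 stayed between -0.90 and -0.76 and those of SUCLG1 in g1 between 0.44 and 0.65. FH in g2 was -0.08 without replicate 2 of g2 and -1.52, then called, without replicate 1. With all libraries limma also called it, at -0.89 on log2 (RPM + 1) (adjusted p = 0.0466), -0.97 on log2 (TPM + 1) (adjusted p = 0.0365) and -1.01 on log2 (TPM + 0.1) (adjusted p = 0.0381), for 4 members called in g2.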

How the data were processed

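Lexogen QuantSeq 3′ libraries were pseudoaligned by the authors to GENCODE release 24 transcripts with Kallisto (version 42.5 in the submitters' processing notes), and estimated counts per transcript were deposited without normalization. Each table listed 199169 transcripts. Here estimated counts were summed per gene, and RPM and TPM were computed from them with the annotated lengths. Genes with a protein-coding transcript and RPM above 3 in 20% of libraries were tested, after the study's filter, though the number of genes kept here is not the study's own. Sums were rounded and fitted with edgeR 4.0.16 (R 4.3.3, TMM, glmQLFit and glmQLFTest), with guide libraries as one group and, in a second fit of all 10 libraries, as 3 groups sharing 1 estimate of spread (biological coefficient of variation 0.205). LHFPL3-AS2 was tested in a fit of all biotypes with at least 10 counts. Ratios were tested in scipy 1.17.1. Alternatives used DESeq2 1.42.0, limma 3.58.1, other scalings and filters, and each library left out. Gene positions come from GENCODE release 29 (GRCh38).

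Named were the 9 members, the other cycle genes, at most 4 called genes in each of 3 neighbouring lists, the 5 genes most like the members, LHFPL3-AS2 and PCK2, which was added because the guides differed in it. For PDHA1, PDHB, PDK1, IDH1, MPC1, SLC25A10, SLC25A11 and SLC25A13, values by guide were added because each was called in 1 guide only. MMUT is listed under an older symbol and was matched by gene identifier. Members, lists and ratios were chosen with earlier results of these data known. Values of 2 genes in the lists, 1 of them called higher, and of 1 of the 4 ratios are not reported here, though they entered the fits, the counts and the adjustment. Replicate numbers follow sample order and are names only. No source says that libraries of a group came from separate cultures, so p-values measure the spread between libraries, which may be technical. Libraries of one group never agreed within sampling noise (chi-square per degree of freedom 4.25 to 24.3, highest for the g2 pair). Depth sets the precision of low genes: 1 count is 0.115 to 0.261 RPM. The programs were tested on simulated data of 11640 genes, where 90% of genes changed 3-fold were recovered in the comparison of 5 with 5 libraries.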

Additional observations from a re-analysis of the deposited data

Results flagged for a closer look

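IDH3B differed between the guides, with a log2 fold change of -1.28 for g2 against g1 (edgeR, adjusted p = 0.00145). Both g2 libraries were below all 3 g1 libraries and all 5 gCtl libraries. PCK2, the mitochondrial phosphoenolpyruvate carboxykinase that draws oxaloacetate from the cycle, also differed between the guides, at -1.40 (edgeR, adjusted p = 0.00845). It measured 32.0, 33.4, 31.8, 26.4 and 35.1 CPM in gCtl, 34.9, 29.9 and 44.2 in g1, and 17.8 and 10.02 in g2. Without replicate 2 of g2 its difference was -1.06 and did not pass (adjusted p = 0.0624). By Dixon's test on the gap to the nearest library over the range of the group, no gCtl library was an outlier in any of 18 cycle genes examined, the low replicate 5 of SDHB included. On the few libraries of gCtl this test can miss a stray value, so it does not clear that replicate.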

How the results depend on the processing

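Depth limits IDH2, IDH3G and OGDH most. Scaling by library totals put the median log2 fold change of all genes at 0.16 in g2 and 0.11 for the guide libraries together (each 0.02 with TMM), so changes there are read against it, and removing a trend on transcript length put it at -0.11 in g2. No paired analysis was possible because the labels carry no replicate numbers. With a test against 1.5-fold (glmTreat) 0 members were called in the guide libraries together, 0 in g1 and 1 (IDH3B) in g2. Without the fold minimum 2 were called in the guide libraries together and 2 in g1, SUCLG1 being the added one, as it was among the 2 in g1 with the length trend removed. Leaving out 1 library gave 1 to 2 called members in the guide libraries together, where FH was added without gCtl replicate 5 or g2 replicate 1 and IDH3G without g1 replicate 1. It gave 1 to 2 in g1 (SUCLG1 without g1 replicate 3, FH without gCtl replicate 5) and 1 to 4 in g2, where only IDH3B was left without g2 replicate 2. IDH3B was the member called between the guides in every alternative run.

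With TPM in place of RPM the log2 ratio difference was -0.69 (exact permutation test, adjusted p = 0.0635) for MDH2 to MDH1, no longer past the threshold, and it turned to -0.049 for IDH2 to IDH3 and -0.28 for IDH2 to IDH1. Without 1 library the differences ran from -0.88 to -0.67, -0.083 to 0.42 and -0.056 to 0.24, in the same order. With 4 against 5 libraries the MDH2 ratio cannot pass the adjusted threshold unless another ratio does too, so its loss there says nothing of stability.

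Values that changed sign were uncalled. With library totals they were 0.066 for CS in g2, 0.0069 for IDH2 in g2, 0.043 for OGDH, 0.029 for SUCLA2 and 0.083 for SDHD (guide libraries together), and 0.055 for FH between the guides. SDHD was also 0.0051 with the upper quartile. On log2 (TPM + 1) and log2 (TPM + 0.1) IDH3A was 0.14 and 0.15 for the guide libraries together and 0.38 and 0.38 in g2, SDHD 0.021 and 0.027, IDH2 between the guides -0.021 and -0.0034, and MDH2 between them -0.14 and -0.14. SUCLG1 in g2 was -1.9e-05 on log2 (TPM + 0.1). Between the guides IDH3A and MDH2 were -0.12 and -0.081 on log2 (RPM + 1), -0.046 and -0.0025 without the filter, and -0.063 and -0.0068 without the length trend, where SDHD in the guide libraries together was 0.11. Without 1 library the ranges were -0.20 to 0.011 (CS in g2), -0.93 to 0.49 (FH between the guides), -0.56 to 0.072, -0.60 to 0.21 and -0.31 to 0.49 (IDH2 in g1, in g2 and between them), -0.19 to 0.18 (IDH3A between the guides), -0.055 to 0.14 (MDH2 between the guides), and for the guide libraries together -0.27 to 0.10 (OGDH), -0.47 to 0.018 (PCK2), -0.13 to 0.093 (SDHD) and -0.13 to 0.021 (SUCLA2).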
